A study of Homo sapiens with 4 samples.

Results

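The RAS-ERK feedback genes are genes that the RAS-ERK pathway switches on, most of which encode proteins that then restrain it. The set comprised 10 of them, taken by name as DUSP4, DUSP5, DUSP6, SPRY2, SPRY4, SPRED1, SPRED2, ETV4, ETV5 and PHLDA1 in the GENCODE annotation, out of 20098 protein-coding genes. Open chromatin around these 10 genes was taken from peak lists of ATAC-seq, an assay that uses the Tn5 transposase to cut and tag accessible DNA, so that loci with many cuts (peaks) are open. Peaks were assigned to a gene when they lay in the gene or within 100 kb of its transcription start site (TSS), and the overlapping peaks of all libraries were merged into regions. Of 60886 merged regions, 69 lay near the 10 genes, and none of the 69 was counted for more than 1 of them.

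The comparison was between 2 biological replicates of MCF10A and 2 of G12V, or 4 libraries, each with its own peak list. MCF10A is a human mammary epithelial line that is immortal but not transformed, and G12V is the same line after lentiviral delivery of an expression vector for HRAS with the G12V change, a constitutively active form, together with a vector for the fluorescent protein GFP, followed by hygromycin selection. G12V is thus a drug-selected population that was transformed in culture, and MCF10A was the parental line, with no control vector stated for it. Both were grown with epidermal growth factor, insulin, hydrocortisone, cholera toxin and horse serum, so the MCF10A cells also had a growth factor that feeds into RAS, and the comparison is of an added active HRAS on that medium.

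In the pathway, a ligand-bound receptor loads RAS with GTP, and RAS then drives RAF, MEK and ERK, kinases that act in series. ERK phosphorylates transcription factors of the ETS family and the ternary complex factors that sit with serum response factor (SRF) on CArG boxes, and it raises the FOS and JUN family proteins that form AP-1. Among the genes these factors switch on are brakes on the pathway itself. DUSP4, DUSP5 and DUSP6 encode dual-specificity phosphatases that remove the activating phosphates from MAP kinases. SPRY2, SPRY4, SPRED1 and SPRED2 encode Sprouty and Spred proteins that act upstream, near the receptor, RAS and RAF. ETV4 and ETV5 encode ETS transcription factors of the PEA3 group, and PHLDA1 encodes a pleckstrin homology-like protein induced by growth factors.

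In replicate 1 the list of MCF10A had 12902 peaks and that of G12V had 14057, while in replicate 2 they had 34484 and 46698. List length therefore followed the replicate number far more than the cell type, and the read depth behind it is unknown from these lists. Each peak carries the score of the peak caller MACS, 10 times the negative log10 of its p-value, which grows with depth. Scores are given here as percentiles within the library's own list, where 100 is the strongest peak. Among epithelial marker genes, KRT5 and KRT14 had no peak in the promoter or gene body in any library, TP63 had 0, 3, 1 and 5 and CDH1 had 0, 3, 0 and 0 (MCF10A replicates 1 and 2, then G12V replicates 1 and 2), so the peaks at these genes did not identify the labelled cell type. Of the fibroblast and blood marker genes CD3E had no peak, COL1A1 had 0, 1, 1 and 1, PDGFRB 1, 1, 0 and 2 and PTPRC 3, 5, 2 and 6, and the only promoter peak among them was that of COL1A1 in MCF10A replicate 2.

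A region was called gained if both G12V libraries and neither of the MCF10A libraries had a peak there, lost in the opposite case, and shared if it had a peak in all 4. Near the feedback genes 4 regions were gained (5.80%, against 3.20% of all merged regions), 0 were lost (2.14% of all), and 7 were shared (10.1%, against 8.36% of all). Of the gained regions 3 lay around DUSP5, and 1 lay within SPRED2. The sequences at the centres of these regions are shown because they are the loci that separated the cell types in all 4 libraries near these genes. Each is a window of 300 bases around the midpoint of the region's best-ranked peak, read 5′ to 3′ on the plus strand of GRCh37, and the capitals mark the letters TGAGTCA, the AP-1 motif, or the same motif on the other strand, TGACTCA.
DUSP5 upstream, chr10:112170174-112170473: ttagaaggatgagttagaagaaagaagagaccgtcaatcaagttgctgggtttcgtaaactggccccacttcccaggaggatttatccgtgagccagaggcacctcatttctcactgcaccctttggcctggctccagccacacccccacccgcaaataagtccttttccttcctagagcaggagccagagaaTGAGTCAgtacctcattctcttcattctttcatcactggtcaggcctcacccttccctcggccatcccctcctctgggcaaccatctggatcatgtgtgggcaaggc
DUSP5 downstream, chr10:112272497-112272796: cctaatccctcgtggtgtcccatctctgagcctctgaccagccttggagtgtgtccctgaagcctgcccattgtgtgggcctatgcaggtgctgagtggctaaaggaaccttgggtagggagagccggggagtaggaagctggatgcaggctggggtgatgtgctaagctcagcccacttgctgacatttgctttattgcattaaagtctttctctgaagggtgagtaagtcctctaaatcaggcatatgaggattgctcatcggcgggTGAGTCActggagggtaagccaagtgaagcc
DUSP5 far downstream, chr10:112290089-112290388: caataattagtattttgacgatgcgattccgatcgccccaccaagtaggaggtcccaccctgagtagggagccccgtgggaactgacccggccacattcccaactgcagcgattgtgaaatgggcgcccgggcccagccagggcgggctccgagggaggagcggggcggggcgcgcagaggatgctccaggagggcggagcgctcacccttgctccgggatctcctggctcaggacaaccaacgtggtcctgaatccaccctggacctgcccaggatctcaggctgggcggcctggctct
SPRED2 intron, chr2:65604911-65605210: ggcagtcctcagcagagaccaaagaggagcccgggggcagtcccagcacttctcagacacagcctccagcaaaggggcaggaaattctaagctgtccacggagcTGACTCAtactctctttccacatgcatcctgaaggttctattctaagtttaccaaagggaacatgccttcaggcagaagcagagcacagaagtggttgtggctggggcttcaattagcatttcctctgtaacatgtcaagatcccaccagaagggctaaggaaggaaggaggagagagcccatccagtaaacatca
The AP-1 letters stood in 3 of these 4 windows. They stood in 27.9% of the windows of all 1951 gained regions and in 27.5% of all regions, so a match in a window is common, and it is a description of the letters, not a site.

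The upstream gained region (chr10:112169720-112170928) lay 87.3 kb before the DUSP5 TSS in intergenic DNA, had no peak in either MCF10A library, and ranked at the 22.9th percentile in G12V replicate 1 and the 65.0th in G12V replicate 2. The downstream region (chr10:112272346-112272948), 15 kb past the TSS and just beyond the end of the gene, ranked at 28.9 and 70.8. The far downstream region (chr10:112289689-112290789), 32.6 kb past the TSS and also intergenic, ranked at 46.6 and 83.7 and carried none of the motifs searched. All 3 ranked higher in G12V replicate 2 than in G12V replicate 1. The SPRED2 region (chr2:65604640-65605251) lay 54.8 kb past the TSS, in an intron of the gene and over an exon of the non-coding gene ENSG00000232693. It had the opposite order, at 65.9 and 31.9. Gained regions near a gene were not rare, since 16.0% of protein-coding genes had at least 1. As many as DUSP5 had, 3 or more, were found near 0.274% of genes. DUSP5 was singled out as the gene of the 10 with the most gained regions, and it also had the most regions. The share takes no account of the number of regions near a gene. DUSP1, a gene of the same pathway outside the 10, also had 3. DUSP5 had 1 gained region with lists of equal length and 1 with the best 50% of each list, so its count of 3 depended on the full lists.

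These calls rest on short lists. The gained count near the 10 genes was 13 with MCF10A replicate 2 left out, 24 with G12V replicate 1 left out and 7 with G12V replicate 2 left out, where 11.4%, 39% and 9.86% of all regions were gained. The lost count was 3 with MCF10A replicate 1 left out, 2 with MCF10A replicate 2 left out and 4 with G12V replicate 2 left out, where 18.5%, 6.03% and 11.1% of all regions were lost.

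DUSP5 (ENSG00000138166, chr10:112257665-112271291, plus strand), which encodes a nuclear phosphatase selective for ERK, had the most regions of the 10 genes. It had 15, a number reached by 3.30% of protein-coding genes, and the median was 6 both for the feedback genes and for all protein-coding genes. The lists held 5 peaks near it in MCF10A replicate 1, 8 in MCF10A replicate 2, 7 in G12V replicate 1 and 14 in G12V replicate 2. Scaled to 10000 peaks of the list these were 3.88, 2.32, 4.99 and 3.0, so the cell types overlapped. The means were 3.10 ± 1.10 for MCF10A and 3.99 ± 1.4 for G12V (SD, n = 2 each), a difference smaller than the replicate spread (p = 0.667 in an exact two-sided permutation test). With 2 libraries against 2 this test cannot go below 0.33, so no count of peaks could pass 0.05 here.

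The upstream gained region of DUSP5 sat in a run of 5 regions that spanned 13 kb, from 112167817 to 112180772 on chromosome 10, and none of the 5 had a peak in an MCF10A library. The other 4 had a peak in G12V replicate 2 alone, at the 58.6th, 76.5th, 28.4th and 3.2nd percentiles in order along the chromosome. The run was marked out after these values were seen. Of all merged regions, 34.6% were called in G12V replicate 2 alone and 40.9% in a G12V but no MCF10A library. Of the 5 windows 4 carried the AP-1 letters. The window of the best ranked of them held 2 matches on opposite strands, which 3.37% of all windows equalled or exceeded, and is shown for that reason, again with the AP-1 letters in capitals.
DUSP5 upstream run, chr10:112174399-112174698: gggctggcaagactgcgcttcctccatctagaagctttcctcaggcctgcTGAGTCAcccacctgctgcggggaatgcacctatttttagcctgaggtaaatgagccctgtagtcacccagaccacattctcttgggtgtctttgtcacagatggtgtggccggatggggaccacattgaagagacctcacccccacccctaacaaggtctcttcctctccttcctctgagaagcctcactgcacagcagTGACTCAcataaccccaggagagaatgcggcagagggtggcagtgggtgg
This region was called in G12V replicate 2 alone, and it still was when each list was cut to its 12888 best peaks. It had no peak in G12V replicate 1, so the call did not recur between replicates.

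Other DUSP5 regions were mixed. At 37.2 kb upstream (chr10:112220074-112220759), in an intron of the divergent transcript DUSP5-DT, the percentiles were 12.3 in MCF10A replicate 1, none in MCF10A replicate 2, 68.9 in G12V replicate 1 and 53.7 in G12V replicate 2. At 50.5 kb upstream (chr10:112206727-112207695) they were 10.6 and 4.1 in MCF10A, none in G12V replicate 1 and 74.6 in G12V replicate 2. Both G12V values of the first and the single G12V value of the second stood above every MCF10A value. An intronic region 3.55 kb into the gene (chr10:112260908-112261516) had 1.9 and 30.2 in MCF10A, no peak in G12V replicate 1 and 34.7 in G12V replicate 2. The shared region 98.7 kb upstream (chr10:112158239-112159725), which lay nearer to the TSS of SMNDC1, had 78.8, 92.9, 73.4 and 88.7 and did not separate the cell types. The AP-1 letters stood in 9 of the 15 windows (60%). The share was 34.8% of all 69 feedback gene windows, which include these 15, and 32.3% of the windows away from protein-coding promoters. The other genes ranged from 0 of 5 windows near SPRY2 to 4 of 8 near PHLDA1.

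**Figure D1:**
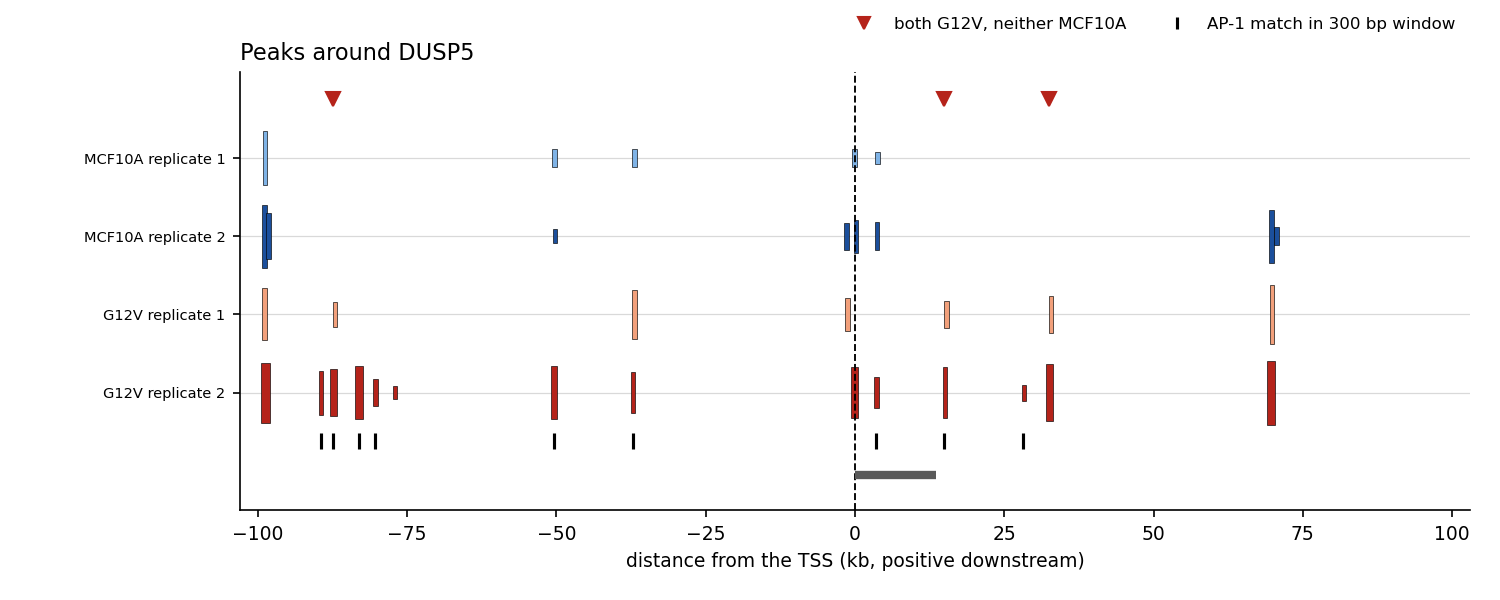
Peaks within 100 kb of the DUSP5 TSS in each library, by distance from the TSS in kb. Each bar is a peak and its height grows with the score percentile; the dashed line is the TSS, the grey bar the gene, triangles mark the 3 gained regions and ticks the 9 windows with the AP-1 letters. The run of 5 regions between 77.2 and 89.4 kb upstream has peaks in G12V rows only, and in G12V replicate 2 alone except at the gained region.

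At its promoter, defined as 1000 bp upstream to 500 bp downstream of the TSS, DUSP5 had a peak in MCF10A replicate 1 (9.9th percentile), MCF10A replicate 2 (38.6th) and G12V replicate 2 (72.6th), and none in G12V replicate 1. The 200 bases before the TSS are shown because they hold a pair of adjoining CArG boxes, the element of SRF, which is in capitals.
DUSP5 promoter, plus strand, chr10:112257465-112257664: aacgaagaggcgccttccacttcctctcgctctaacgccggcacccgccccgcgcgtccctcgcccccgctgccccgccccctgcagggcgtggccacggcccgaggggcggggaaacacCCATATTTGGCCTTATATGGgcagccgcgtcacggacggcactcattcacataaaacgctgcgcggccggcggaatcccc
The boxes lay at chr10:112257585-112257594 and chr10:112257595-112257604, centred 75 and 65 bases before the TSS. A CArG box stood in 1.63% of all windows and in 0.874% of promoter windows, and 17 of 60886 windows had at least 2, of which 3 were at promoters. The peaks of MCF10A replicate 2 (chr10:112257446-112257781) and G12V replicate 2 (chr10:112257004-112258170) covered the pair, and that of MCF10A replicate 1 (chr10:112257152-112257491) ended before it.

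DUSP6 (ENSG00000139318, chr12:89741012-89746278, minus strand), the cytoplasmic phosphatase of ERK, had a promoter peak in every library. Of 7 regions, 2 were shared and both were at the promoter. The first (chr12:89745272-89747052), over the TSS, had percentiles of 86.9 and 91.3 in MCF10A and 78.0 and 85.6 in G12V. The second (chr12:89747128-89748584), just upstream, had 57.0, 93.4, 2.6 and 93.7, so that it only just passed the threshold of the caller in G12V replicate 1 and was among the strongest peaks in both replicate 2 lists. Ranks of shared regions were compared as normal scores in limma, fitted over all 5090 regions shared by the 4 libraries. The G12V minus MCF10A difference was -0.61 ± 0.55 (SE) for the first and -1.09 ± 0.75 for the second (limma, adjusted p = 0.839 and 0.792). The second rested on G12V replicate 1, since it was 0.26 without that library and -2.30 without G12V replicate 2. Fits without a library used the regions with a peak in every remaining library, ranked anew. A region 23.5 kb upstream (chr12:89769396-89770108), in an intron of the non-coding gene ENSG00000286608, had no peak in MCF10A replicate 1, 43.9 in MCF10A replicate 2, 28.2 in G12V replicate 1 and 86.9 in G12V replicate 2.

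DUSP4 (ENSG00000120875, chr8:29190581-29208201, minus strand), an inducible nuclear phosphatase of MAP kinases, had the fewest regions, 2, and at most as many were found near 16.7% of protein-coding genes. Its promoter had a peak at the 44.9th percentile in MCF10A replicate 2 and at the 9.3rd in G12V replicate 2, and none in either replicate 1 list. The other region, 22.8 kb upstream, had a peak in G12V replicate 2 alone (30.9). No statement on a difference between cell types can rest on these values.

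SPRY2 (ENSG00000136158, chr13:80910111-80915261, minus strand), a Sprouty protein that blocks signalling downstream of receptor tyrosine kinases, had a shared promoter region (chr13:80914612-80916090). Its percentiles were 28.1 and 95.0 in MCF10A and 75.4 and 97.4 in G12V. The rank was higher in G12V within each replicate number, and the normal score difference of 0.64 ± 0.64 (SE) did not pass the test (limma, adjusted p = 0.863). It turned to -0.20 without MCF10A replicate 1, the library with the low value, in a fit over regions with a peak in every remaining library. In the number of peaks SPRY2 went the other way, with 2, 5, 2 and 4 peaks, or 1.55, 1.45, 1.42 and 0.857 per 10000. Both MCF10A values were above both G12V values, with means of 1.5 ± 0.0714 and 1.14 ± 0.401 (SD, n = 2 each, exact two-sided permutation test, p = 0.333, the smallest possible). Of all protein-coding genes 17.7% had this order, and with equally long lists SPRY2 had 2, 2, 2 and 1 peaks and no longer showed it.

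SPRY4 (ENSG00000187678, chr5:141689992-141706020, minus strand), a second Sprouty gene, had 12 regions, of which 7 were called in 1 library. Its lists held 1, 5, 5 and 9 peaks, or 0.776 and 1.45 per 10000 in MCF10A and 3.56 and 1.93 in G12V. The cell types did not overlap, with means of 1.11 ± 0.477 for MCF10A and 2.74 ± 1.15 for G12V (SD, n = 2 each, exact two-sided permutation test, p = 0.333), an order found in 10.5% of protein-coding genes. The promoter region (chr5:141703971-141706383) had a peak in MCF10A replicate 2 (82.5) and G12V replicate 2 (92.4) only. All 5 peaks of G12V replicate 1 lay upstream of the promoter, and those of G12V replicate 2 were divided between 4 upstream, 4 downstream and the promoter.

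Among those upstream regions of SPRY4, the one at 32.2 kb (chr5:141736351-141737311) had no peak in MCF10A replicate 1, 52.5 in MCF10A replicate 2, 62 in G12V replicate 1 and 85.5 in G12V replicate 2, so both G12V values were above the MCF10A values. At 17.7 kb (chr5:141721638-141722913) the values were none, 87.3, 37.1 and 89.2. This region carried the only other CArG box in the 69 windows, and the 150 bases around it are shown with the box in capitals.
SPRY4 upstream, plus strand, chr5:141722192-141722341: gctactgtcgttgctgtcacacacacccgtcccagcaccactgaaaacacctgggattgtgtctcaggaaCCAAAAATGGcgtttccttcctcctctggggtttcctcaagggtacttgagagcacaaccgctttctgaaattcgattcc
At 38.0 kb (chr5:141742199-141742917) the values were none, 52.6, 2.6 and 60.9, and the AP-1 letters were present. A further pair of regions, 11.4 and 64.7 kb upstream, had a peak in G12V replicate 1 alone, at 13.6 and 69.5. All 12 regions had the SPRY4 TSS as their nearest protein-coding TSS.

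SPRED1 (ENSG00000166068, chr15:38545037-38649450, plus strand) and SPRED2 (ENSG00000198369, chr2:65537985-65659771, minus strand) encode membrane-bound Spred proteins that hold RAS in check through the GTPase-activating protein neurofibromin. The SPRED1 promoter (chr15:38543398-38545227) had no peak in MCF10A replicate 1 and percentiles of 79.2, 79.0 and 81.7 in the other 3 libraries, the tightest set of ranks among the promoters with at least 3 peaks. Near SPRED1 the lists held 0, 3, 1 and 4 peaks. Its 2 intronic regions were called in G12V replicate 2 alone (14.6 and 46.7) and a region 34.4 kb upstream in MCF10A replicate 2 alone (49.1).

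SPRED2 had 10 regions and 1, 6, 4 and 10 peaks. Per 10000 these were 0.776 and 1.74 in MCF10A and 2.85 and 2.14 in G12V, again without overlap and in the order of 10.5% of protein-coding genes, with means of 1.26 ± 0.682 for MCF10A and 2.50 ± 0.499 for G12V (SD, n = 2 each, exact two-sided permutation test, p = 0.333). Of the 10 regions 7 were in introns of the gene, and 5 of those lay between 41.9 and 65.8 kb from the TSS. They included the gained region and a region 64.8 kb in (chr2:65594504-65595286) with the AP-1 letters and no peak, 9.2, 39.4 and 61.2. The shared intronic region at 49.4 kb (chr2:65610050-65610683) had 34.8 and 74.3 in MCF10A and 12.2 and 62.4 in G12V, lower in G12V within each replicate number (normal score difference -0.83 ± 0.52 (SE), limma, adjusted p = 0.776). Ranks within this gene thus went in both directions. The SPRED2 promoter (chr2:65659418-65660122) had no peak in MCF10A replicate 1, 51.2 in MCF10A replicate 2, 15.9 in G12V replicate 1 and 49.9 in G12V replicate 2.

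**Figure D2:**
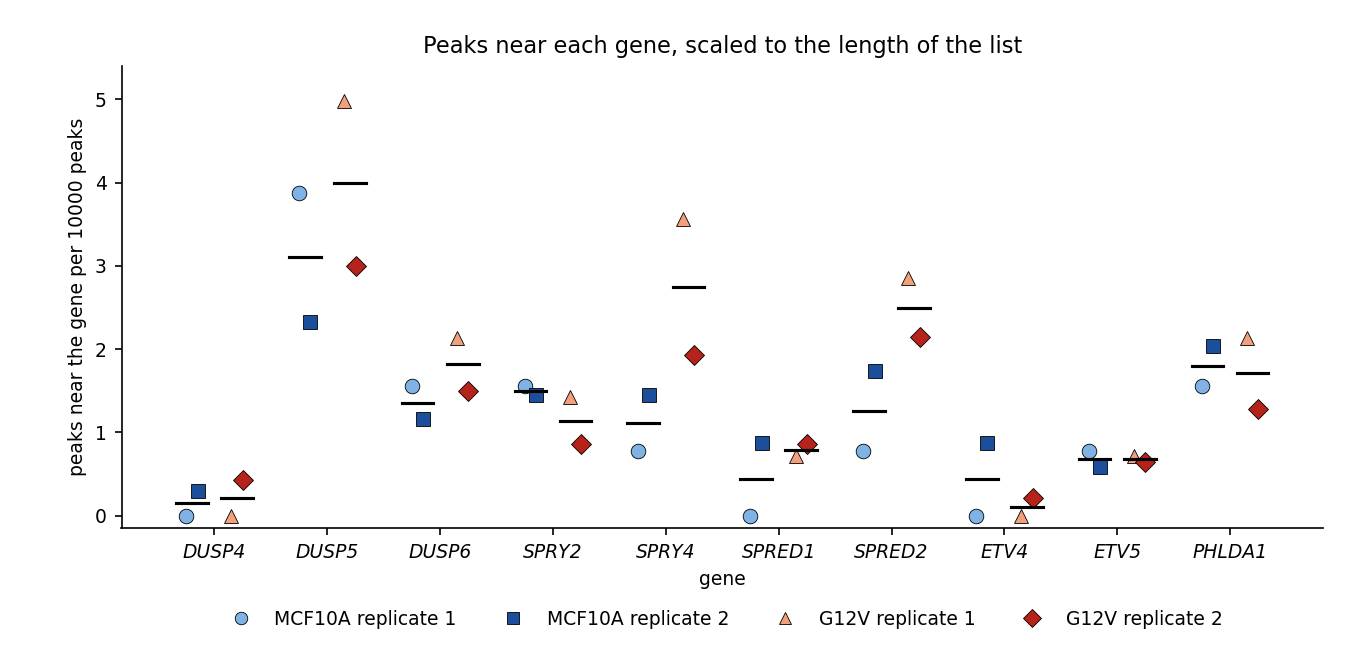
Peaks in or within 100 kb of each gene per 10000 peaks of the library's list (vertical axis), with 1 point per library and a bar at the mean of the 2 libraries of a cell type. SPRY4 and SPRED2 are the genes with both G12V points above both MCF10A points, and SPRY2 is the gene with the reverse order.

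ETV5 (ENSG00000244405, chr3:185764103-185828107, minus strand) and ETV4 (ENSG00000175832, chr17:41605212-41656988, minus strand), closely related ETS activators, differed in the promoter peaks at their canonical starts. The ETV5 promoter (chr3:185826505-185827893) was shared, at 67.6 and 90.8 in MCF10A and 85.5 and 94.2 in G12V. G12V was higher within each replicate number, and the normal score difference was 0.28 ± 0.52 (SE, limma, adjusted p = 0.946). With the outermost annotated start of the gene in place of the canonical one, the promoter window had a peak in G12V replicate 2 alone. The region at the canonical start was the only one of the 11 promoter regions with the AP-1 letters, which 3.84% of protein-coding promoter windows carried. The ETV4 promoter (chr17:41623554-41624081) had a single peak, in MCF10A replicate 2, at the 13.3rd percentile. At the outermost start of ETV4 no library had a promoter peak. Near ETV4 the lists held 0, 3, 0 and 1 peaks, and the G12V peak was at an exon of the neighbouring gene DHX8, in the only window of the 69 with the ETS letters CCGGAAGT.

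PHLDA1 (ENSG00000139289, chr12:76419227-76425556, minus strand) had a shared promoter region (chr12:76424817-76426778) at 57.2 and 93.5 in MCF10A and 68.4 and 88.1 in G12V, with the order of the cell types reversed between the replicate numbers (normal score difference -0.31 ± 0.54 (SE), limma, adjusted p = 0.940). Near it the lists held 2, 7, 3 and 6 peaks, and per 10000 the cell types overlapped. Of its 8 regions 6 had a peak in both replicate 2 lists, and 5 of those 6 ranked higher in G12V replicate 2, as did 63.1% of all regions called in both lists. The largest difference was at 77.4 kb downstream (chr12:76347737-76348515), with 13.9 in MCF10A and 84.3 in G12V and with no peak there in a replicate 1 list.

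**Figure D3:**
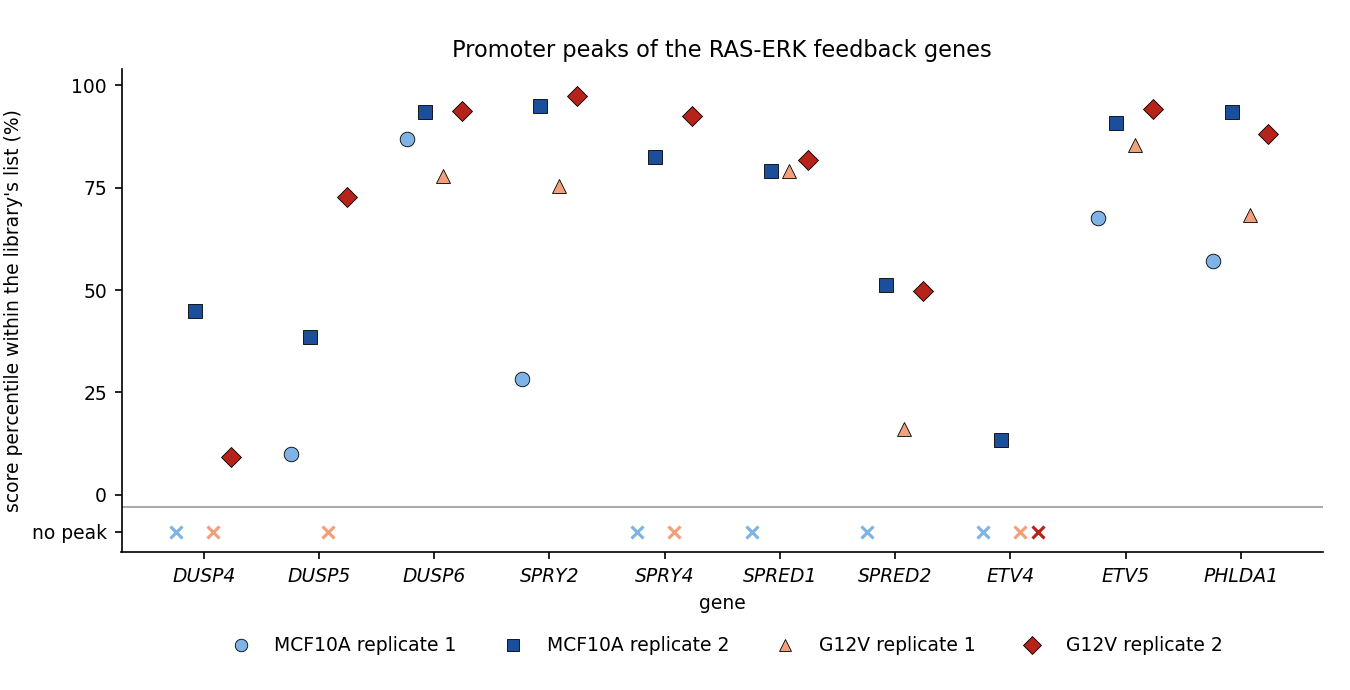
Score percentile (vertical axis, %) of the best promoter peak of each gene in each library, with crosses below the line where the library's list has no promoter peak. DUSP6, SPRY2, ETV5 and PHLDA1 have 4 points each, ETV4 has 1, and no gene has points in G12V alone.

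Across the 10 genes, the promoter had a peak in 5 genes in MCF10A replicate 1, 10 in MCF10A replicate 2, 6 in G12V replicate 1 and 9 in G12V replicate 2. Over all protein-coding genes the shares were 22.6%, 44.7%, 24.7% and 47.1%. The promoter was open in all 4 libraries at 4 of 10 genes, DUSP6, SPRY2, ETV5 and PHLDA1, against 15.4% of protein-coding genes. No promoter was open in both G12V and neither MCF10A library (0.876% of genes), and none in the opposite way (0.498%). DUSP4 and SPRY4 were open in both replicate 2 lists and neither replicate 1 list, a pattern of 11.5% of genes that follows list length. By the presence of a peak, no promoter of the 10 thus separated the cell types in both replicates.

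Outside the promoters of the 10 genes there were 58 regions, of which 3 lay at the promoter of another gene (SMC3, DHX8 and NAP1L1). By annotation 28 were intergenic, 12 in introns of the gene itself and 18 in another annotated gene. For 61 of all 69 regions the nearest protein-coding TSS was that of the feedback gene. Of the 69 regions 27 (39.1%) had a peak in at least 1 G12V library and in no MCF10A library, against 40.9% of all merged regions. The opposite, a peak in at least 1 MCF10A and no G12V library, held for 5 (7.25%, against 20.8% of all), and 37 (53.6%, against 38.3%) were called in both cell types. Regions called once made up 28 of the 69 (40.6%, against 56.4% of all), and 20 of these were in G12V replicate 2 (29.0%, against 34.6% of all). These shares describe the 69 regions beside the whole and were not tested.

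**Figure D4:**
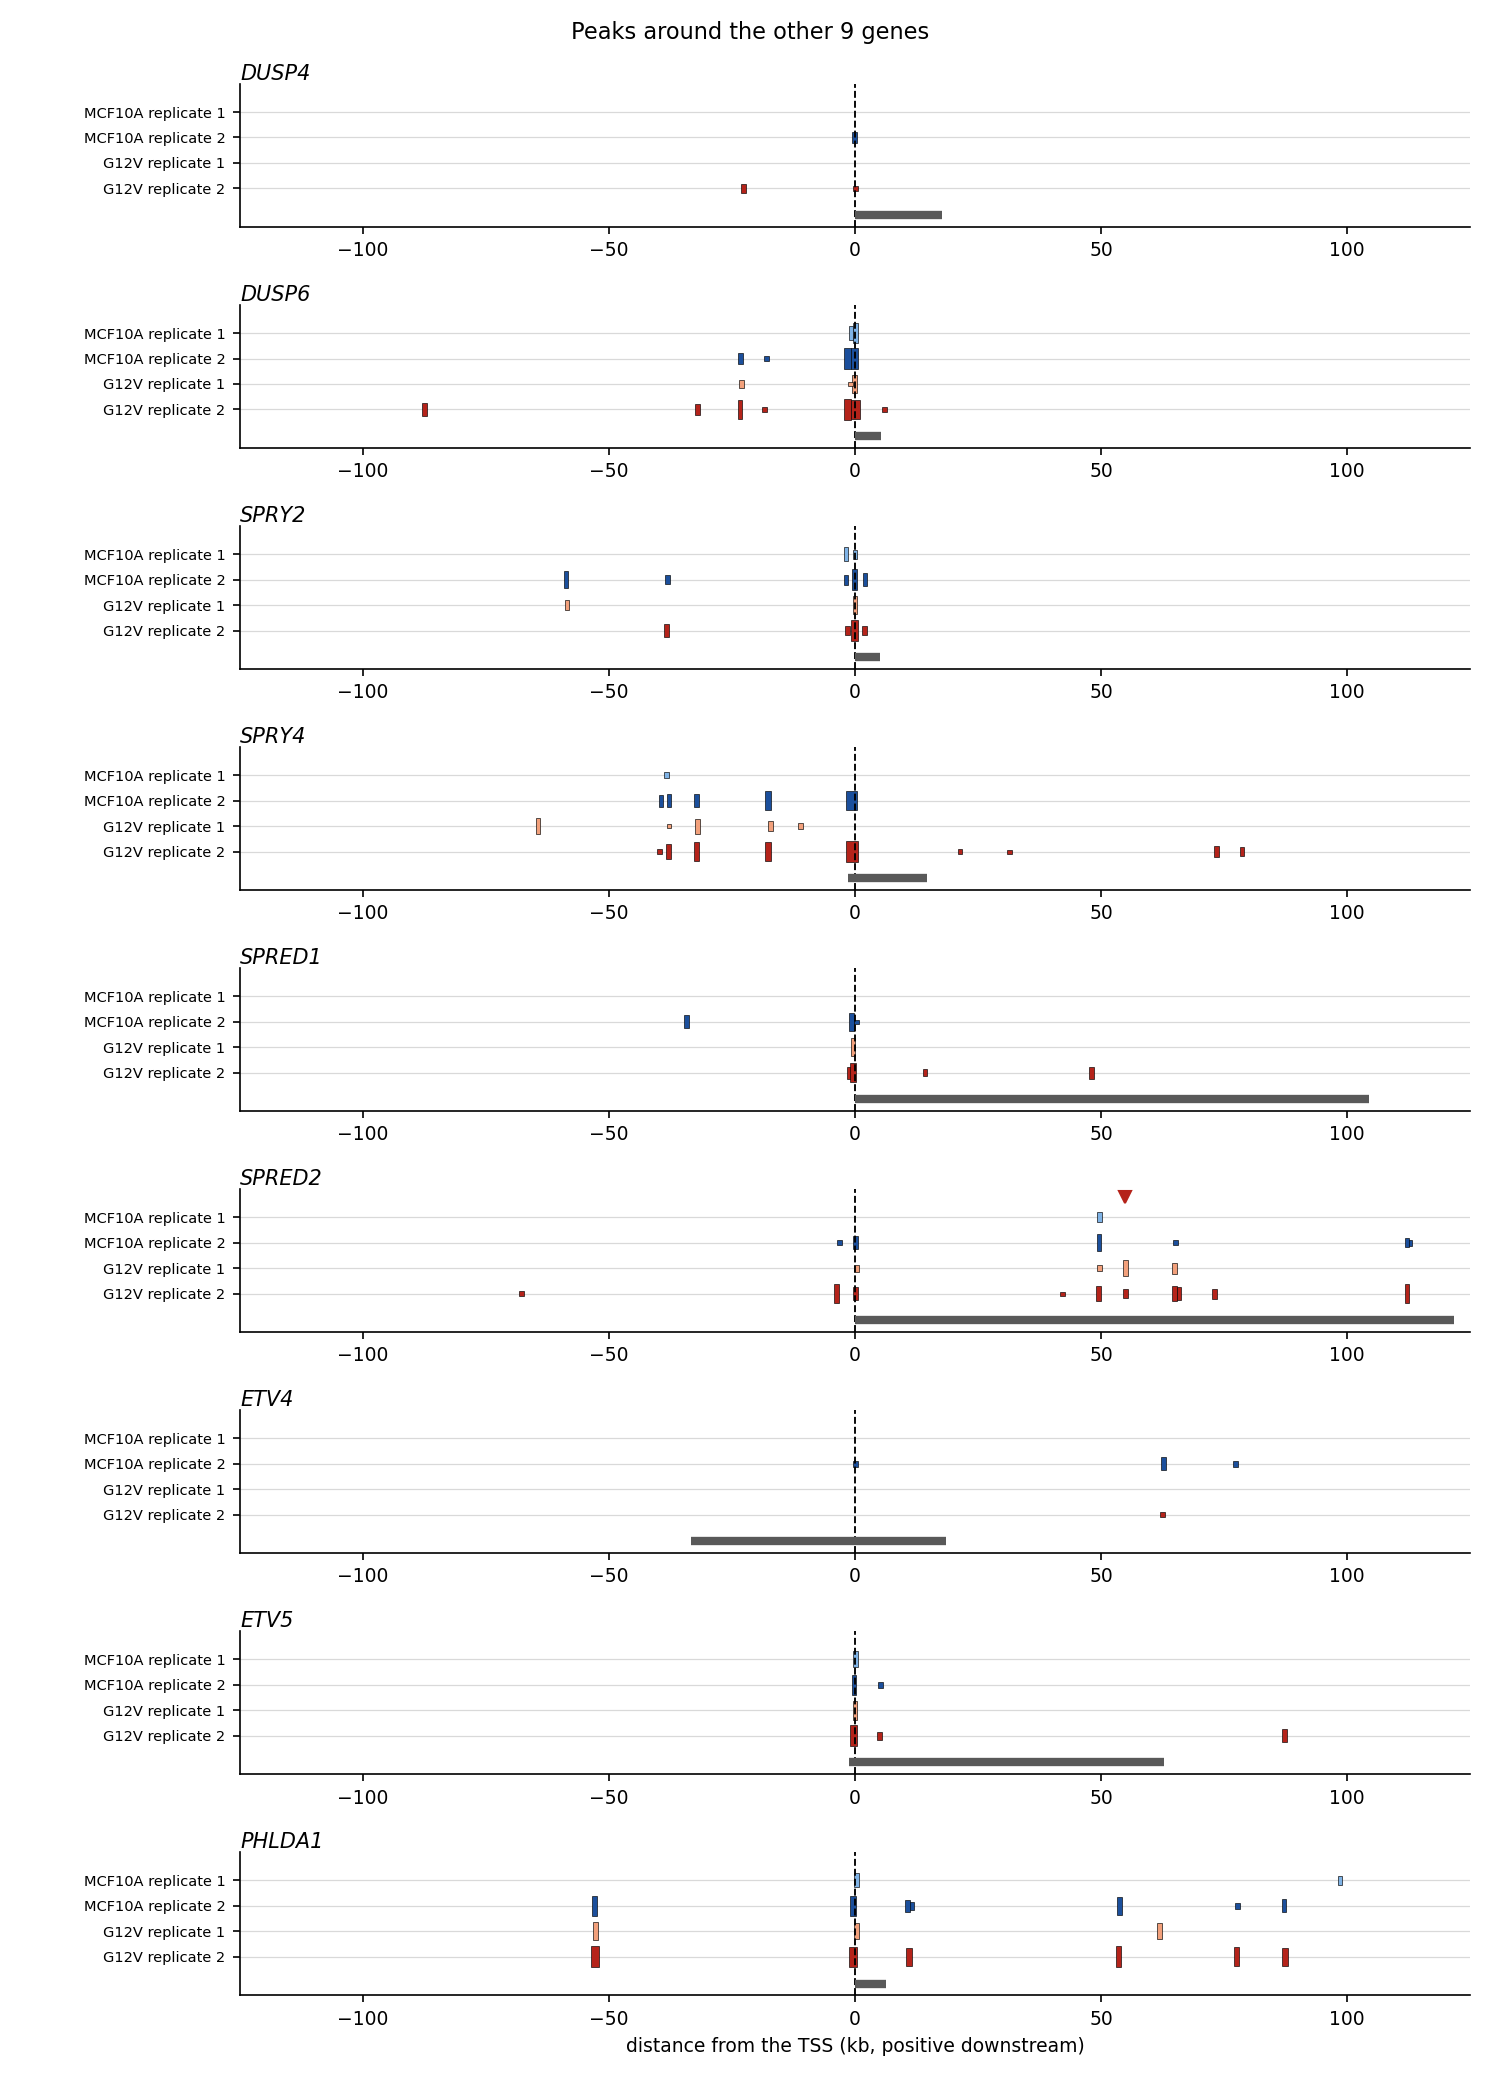
Peaks around the 9 genes other than DUSP5 by distance from the TSS in kb, positive in the direction of transcription, with 1 row per library. Bar height grows with the score percentile, the dashed line is the TSS, the grey bar the gene body, and the triangle marks the gained region in SPRED2. SPRY4 shows G12V peaks up to 64.7 kb upstream, while DUSP4, ETV4 and ETV5 have 2 or 3 regions each.

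To set lists of unequal length aside, only the 12888 best-scoring peaks of each list were kept. Near the 10 genes 14 peaks then remained in MCF10A replicate 1, 14 in MCF10A replicate 2, 24 in G12V replicate 1 and 23 in G12V replicate 2. The mean over all protein-coding genes, scaled to 10 genes, was 14.5, 14.1, 14.3 and 13.1 peaks. At this cut the MCF10A libraries had about the general number near the feedback genes and both G12V libraries had more. Over the full lists the totals per 10000 peaks were 10.9 and 12.8 in MCF10A and 18.5 and 12.9 in G12V. There G12V replicate 2 was about level with MCF10A replicate 2, so the excess in both G12V libraries depended on the cut. DUSP5 had 5, 2, 7 and 6 of these peaks, SPRY4 had 1, 2, 4 and 3, and SPRED2 had 1, 1, 4 and 2. These 3 genes had more in both G12V libraries than in either MCF10A library, an order found in 6.75% of protein-coding genes, and none of the 10 had the reverse order (8.44% of genes). PHLDA1 had 2, 3, 3 and 6, and DUSP4 and ETV4 had none in any library. The 3 genes held 7, 5, 15 and 11 of the peaks, and the other 7 genes 7, 9, 9 and 12. Since the 3 were picked for more peaks in both G12V libraries, their total restates that choice. At equal length 3 regions were gained (7.69% of 39, against 5.24% of all regions) and 0 lost (5.19%). They were the far downstream DUSP5 region, the region 23.5 kb upstream of DUSP6 and the region 32.2 kb upstream of SPRY4, of which the first was also gained in the full lists.

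The ranks of regions called in both lists of a replicate number give a comparison that does not need a peak to be absent. Of 34 feedback gene regions with a peak in both replicate 2 lists, 23 ranked higher in G12V (67.6%, against 63.1% of all 22104 such regions), with a median difference of 4.06 percentile points against 4.93 over all. A replicate 1 peak in both cell types was found at 8 regions, and 4 ranked higher in G12V (55.1% of all 5394). Ranks thus moved about as they did across the genome. The largest single difference near the genes was 3.72 kb upstream of SPRED2 (chr2:65662928-65663977), from 5.3 in MCF10A replicate 2 to 83.0 in G12V replicate 2. In the limma fit none of the 7 shared feedback gene regions passed, and neither did any of the 5090 (0% called by limma, smallest adjusted p = 0.704), while 346 (6.80%) had an unadjusted p under 0.05.

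**Figure D5:**
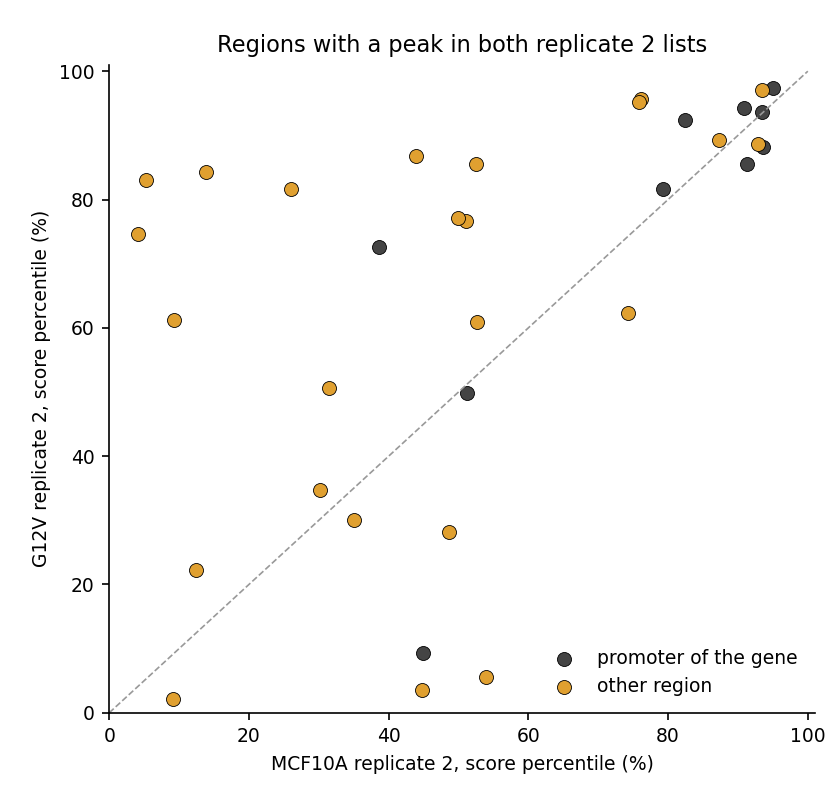
Score percentile in MCF10A replicate 2 (horizontal, %) against G12V replicate 2 (vertical, %) for the 34 regions near the genes with a peak in both lists; the dashed line is equality. Promoter regions mostly sit at the upper right, and 23 points lie above the line, the farthest at 5.3 against 83.0.

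The other genes of the pathway were described from a list of 26, which comprised further DUSP, SPRY, SPRED and ETV genes, GTPase-activating proteins such as RASA1 and NF1, and early targets of ERK such as EGR1 and FOSL1. Of their 208 regions 13 were gained (6.25%, against 3.20% of all merged regions) and 3 lost (1.44%, against 2.14%). A further 24 were shared (8.36% of all). Of the 26 genes 9 had a gained and 3 a lost region, and both kinds occurred near DUSP1 and HBEGF. Of all 20098 protein-coding genes, 3207 had a gained region and 2012 a lost region nearby. The difference between the 26 genes and all genes was not tested. DUSP1, a phosphatase of p38, JNK and ERK, had 21 regions, of which 3 were gained, 1 lost and 6 shared. DUSP7, a cytoplasmic ERK phosphatase, was the 1 gene of the list whose promoter had G12V peaks in both replicates (14.9 and 34.3) and no MCF10A peak. This pattern held for 0.876% of protein-coding genes. The lost region near NF1, the gene of neurofibromin, lay 42.6 kb upstream (chr17:29378994-29379891) and ranked at 37.3 and 42.0 in MCF10A. Per 10000 peaks, 4 of the 26 genes were higher in both G12V libraries and 5 in both MCF10A libraries, against 10.5% and 17.7% of all genes. At equal list length the 26 genes together had 53, 39, 58 and 41 peaks, so the cell types overlapped there.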

How the data were processed

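Accessibility had been measured by ATAC-seq in 2 replicates of MCF10A and 2 of G12V. Per the study's methods, the authors aligned reads to hg19 (GRCh37) with bowtie (0.12.9), kept unique reads, shifted each read start onto the transposition centre and ran MACS (1.4.2, tag size 51, no model, shift size 75, local window 25000, p 1e-04). The methods state that the replicate reads of a condition were pooled for the study's further work. The deposited values are instead the MACS scores of per-library lists, with a lowest score of 40 in each. A locus just under the threshold of a short list looks absent, read counts were not used here, and precision is limited by list length.

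Only the 22 autosomes and X were used, with 12888, 34463, 14042 and 46673 peaks per library, and 14 to 25 peaks on Y were left out. Peaks overlapping by at least 1 bp were merged. TSSs were those of canonical transcripts in GENCODE (44) on GRCh37, and the promoter window and the 100 kb range were those of the methods. Percentiles are ranks of the score in the list, ties averaged. Motifs were searched without mismatch on both strands in 300 bp windows: CCGGAAGT (ETS), TGAGTCA (AP-1), TGACGTCA (CRE, no match near these genes) and the CArG box. Peak counts were compared by exact two-sided permutation tests over libraries, and normal scores of shared regions by limma (3.58.1, R 4.3.3) with Benjamini-Hochberg adjustment, at 0.05. The limma fit and the merging were tested on simulated data. Other steps used Python 3.11.15, numpy 2.4.6, scipy 1.17.1, pandas 2.3.3, pysam 0.24.0 and matplotlib 3.10.9.

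The 10 genes, the list of 26 and the markers were chosen with earlier results of these data known. All 10 were named with their promoter, gained, lost and shared regions, and further regions were named after their values were seen. Alternatives were other list lengths, overlaps, merging distances, windows, TSSs, single replicates, left-out libraries, a replicate block and log2 scores.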

Additional observations from a re-analysis of the deposited data

How the results depend on the processing

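The count of 4 gained regions near the feedback genes stayed within 1.5 times (3 to 6) at equal list lengths, with 50% overlap, with peaks within 200 bp merged, with 50 and 200 kb windows and with other TSSs. At equal lengths the regions were largely others, near DUSP5, DUSP6 and SPRY4, and 1 of the 4 was among them. The count became 1 with the best 50% of each list (3.59% of all regions) and 27 with a peak in either replicate sufficing (40.9% of all), and ranged from 5 to 24 when 1 library was left out (24 without G12V replicate 1). The 0 lost regions became 5 with either replicate (20.8% of all) and ranged from 0 to 4 when 1 library was left out. Genes with more peaks per 10000 in both G12V libraries numbered 2 (SPRY4 and SPRED2), 3 to 5 when 1 library was left out (5 without MCF10A replicate 1 or G12V replicate 2) and 6 with a 200 kb window. Genes with more in both MCF10A libraries numbered 1 (SPRY2), 0 at equal list lengths and 2 with a 50 kb window. They numbered 1 to 3 when 1 library was left out (3 without MCF10A replicate 1, 2 without MCF10A replicate 2 or G12V replicate 1). The main counts stand beside shares of 10.5% and 17.7% of protein-coding genes. No such share was computed with a library left out or with another window, so those counts are not results about the 10 genes. An order over fewer libraries is also met more easily. Promoters open in all 4 libraries numbered 3 to 5, where that of ETV5 was missing from the 3 with the outermost gene start and that of SPRY2 from the 3 with the best 50% of each list. Causes were not tested.

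Whether libraries of the same replicate number were prepared together is not stated. List length followed the number. In the normal scores of shared regions, the replicate difference of MCF10A correlated with that of G12V at r = 0.175. With the replicate block, pair 1 gave 18 gained and 6 lost regions (40.3% and 34.7% of all) and pair 2 gave 25 and 5 (41.7% and 19.6%). More peaks per 10000 in G12V were found at 6 genes in pair 1 and 6 in pair 2, and more in MCF10A at 2 and 4. Each pair set 1 library against 1, and the share over all genes was not computed for it. No lean to a cell type can be read from these counts. Over all shared regions limma called 6 with the replicate block. The fits with a library left out used regions with a peak in every remaining library, ranked anew. They left 1 library in a group, so only their effect sizes are given. With all 4 libraries, limma called 0 feedback gene regions under every setting run.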
